A study of Mus musculus with 20 samples.

Results

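The genes described here make up the regulated secretory apparatus and the glucose-sensing machinery of pancreatic endocrine cells. They were taken from a list of 38 gene symbols in 6 role groups: granins and other granule cargo, prohormone processing enzymes, granule membrane, zinc and folding genes, docking and fusion genes, glucose sensing and excitability genes, and receptors with a secreted peptide. Of the 38, 36 had a probe set carrying that symbol alone, and 34 passed the signal filter and were tested among 17992 genes. Pcsk2 and Prlr had no such probe set and were not analysed here. Vgf and Gipr lay above the array median on too few arrays to be tested. Each measured member had 1 probe set.

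RNA of whole pancreas from C57BL/6J mice was hybridised to 20 Affymetrix arrays. The 4 groups were inceptor-deficient animals (Iir -/-) and wild-type animals (Iir +/+), each at embryonic day 18.5 (E18.5) and on the day of birth (P0). There were 4 wild-type and 5 knockout arrays at E18.5, and 5 wild-type and 6 knockout arrays at P0. All groups were starved, but differently: the mother for 2 h before E18.5 collection, and the pups for 5 h at P0, so age and length of starvation cannot be told apart. The labels give sex as not determined, name no litters and leave it unsaid if arrays came from separate animals, so the p-values rest on the spread among these arrays, which may be technical. Iir is an older name of Elapor1, which encodes inceptor, a transmembrane protein that restrains insulin receptor signalling. The knockout is described as a loss in the animal, with no tissue restriction given.

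Endocrine cells store peptide hormones in dense-core granules. Granins condense in the trans-Golgi network together with prohormones. Convertases, carboxypeptidases and an amidating enzyme then trim the prohormones into active peptides inside the maturing granule. In the beta cell, glucose enters through a transporter and is metabolised to ATP, which closes an ATP-sensitive potassium channel. The membrane then depolarises, calcium enters through voltage-gated channels, and synaptotagmins, SNARE proteins and Rab proteins bring granules to fusion. Neurons and chromaffin cells use many of the same proteins, and whole pancreas contains nerves, exocrine tissue and vessels besides islets. In such bulk RNA, fewer cells of a type and less RNA per cell cannot be told apart.

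Granin and convertase genes are classic carriers of the cAMP response element, an 8-base palindrome bound by CREB-family factors, and 3 promoters are shown because they hold that element or its near match in genes whose values are described below. RefSeq promoters on GRCm38.p6 (windows of 300 bases, 250 before and 50 after a transcript start) covered 27 of the 38 members. The motif TGACGTCA, searched on both strands, was present in 3 of these 27 (11.1%): Scg2, Chgb and Pcsk1, the last relative to a transcript start that is not the outermost of its gene. It was present in 2.03% of 27025 genes and in 1.79% of 32851 promoters of that length. The looser motif TGACGTNA, which includes every TGACGTCA, was present in 5 of 27 (18.5%), adding Chga and Rab3a, against 3.36% of genes and 2.93% of promoters. The last 150 bases before the start follow, 5′ to 3′ on the gene's strand, with the match in capitals. They lie at chr1:79440027-79440176 (Scg2, minus strand), chr2:132781492-132781641 (Chgb, plus) and chr12:102554791-102554940 (Chga, plus).
Scg2: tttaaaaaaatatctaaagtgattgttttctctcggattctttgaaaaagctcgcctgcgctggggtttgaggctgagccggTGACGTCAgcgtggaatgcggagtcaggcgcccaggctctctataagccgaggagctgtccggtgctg
Chgb: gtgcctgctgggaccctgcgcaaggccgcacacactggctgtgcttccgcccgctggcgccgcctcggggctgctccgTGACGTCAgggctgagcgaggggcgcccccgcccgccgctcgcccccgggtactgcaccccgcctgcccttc
Chga: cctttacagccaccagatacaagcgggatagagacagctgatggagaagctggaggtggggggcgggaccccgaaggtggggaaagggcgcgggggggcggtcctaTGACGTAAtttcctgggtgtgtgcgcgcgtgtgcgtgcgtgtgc
The capitals begin 68 bases before the start in Scg2, 72 in Chgb and 44 in Chga, so all lie within a short stretch of the proximal promoter. The left and right parts of RE1, the element bound by the repressor REST, were searched in the same way. TTCAGCACC was found in Ptprn2 and Scg2 (2 of 27, 7.41%, against 0.433% of genes and 0.371% of promoters), and GGACAGCGC in Ptprn2 alone (1 of 27, 3.7%, against 0.477% and 0.405%). A match describes these letters only. By the test described next, Scg2 and Chga were higher at P0 in at least 1 genotype, Pcsk1 was lower in both, and Chgb passed in neither, so genes with the element did not share a direction.

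Values below are the deposited log2 signals. Differences are log2 differences ± SE from limma, with p-values adjusted over all 17992 genes by the Benjamini-Hochberg method, and a gene was called when the adjusted p was under 0.05. Array medians lay between 4.81 and 4.94, the lowest correlation between arrays was 0.979, and the number of arrays limits the precision. Elapor1 was at 11.86 ± 0.22 (SD, n = 4) in wild type and 6.31 ± 0.30 (SD, n = 5) in knockouts at E18.5, and at 11.54 ± 0.35 (SD, n = 5) and 6.05 ± 0.30 (SD, n = 6) at P0. The mean of 7 islet hormone markers, which identify endocrine tissue, was 15.71, 15.89, 15.76 and 15.83 in E18.5 wild type, E18.5 knockout, P0 wild type and P0 knockout. Ins2 stood at 18.57 to 18.58 in all 4 groups, with an SD of 0 in 3 of them, so it can show no difference. Markers of other tissues varied between arrays: the intestinal epithelium mean ran from 5.34 to 11.32, the liver mean from 6.14 to 13.59 and the skeletal muscle mean from 5.68 to 9.71. The 4 arrays with an intestinal or muscle mean over 9 were E18.5 knockout 1 and 2, E18.5 wild type 4 and P0 knockout 4, and results were recomputed without them.

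The comparison of P0 with E18.5 asked how the secretory apparatus changed across birth. In wild type 7 of the 34 members were called (20.6%): Chga, Scg2, Scg3, Cpd and Pam rose, and Pcsk1 and Trpm5 fell. Over all genes 8.87% were called, 4.76% higher and 4.1% lower at P0. In knockouts 9 members were called (26.5%): Scg2, Scg3, Scg5, Pam and Vamp2 rose, and Pcsk1, Trpm5, Ptprn2 and Ero1lb fell. The share over all genes was 23%, with 11.3% higher and 11.7% lower, so the knockout count lies near its background. The median member difference was -0.02 in wild type and 0.04 in knockouts, against 0.01 and 0.00 over all genes. Of the 34 members, 5 (Scg2, Scg3, Pam, Pcsk1, Trpm5) were called in both genotypes, each in the same direction. Over all genes, 1209 of 17992 were called in both in the same direction. For reading the statements on overlap below, the ages did not overlap in 6.24% of all genes with P0 higher and 5.36% with P0 lower in wild type, and in 5.9% and 6.55% in knockouts. Without the 4 marker-rich arrays named above, 4 members were called in wild type.

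**Figure D1:**
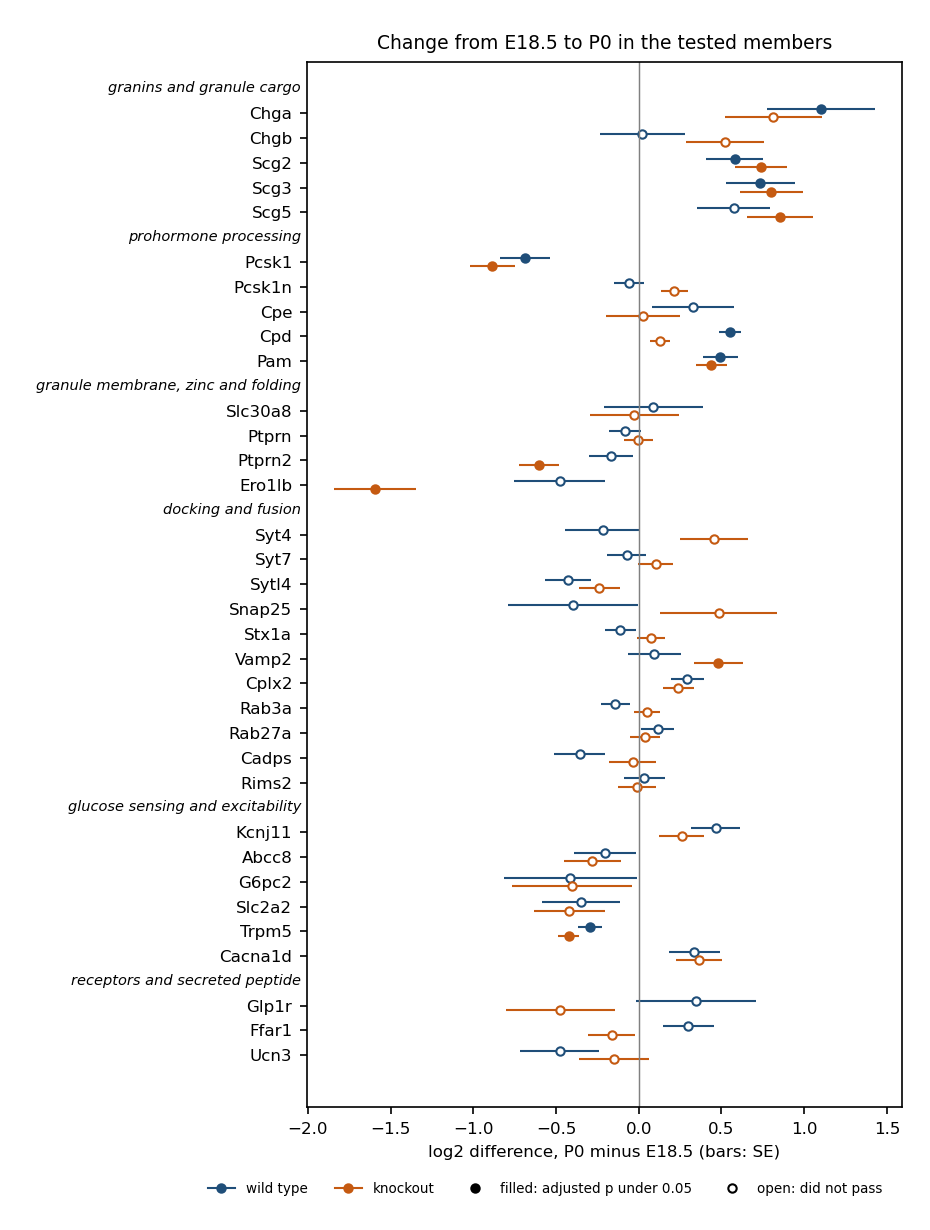
Log2 difference between P0 and E18.5 (x axis, bars: SE) for each of the 34 tested members, arranged by role, in wild type (blue) and knockout (orange); filled points passed the test. The 5 granins lie at or to the right of 0 in both genotypes, while Pcsk1 and Trpm5 lie to the left with filled points in both, and Ero1lb reaches -1.59 in knockouts.

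Among the granins, acidic proteins that drive granule formation and yield bioactive peptides, all 5 tested had differences above 0 in both genotypes, and 3 passed in each. Their median difference was 0.58 in wild type and 0.80 in knockouts. Averaged over these 5 genes, the signal per array was 9.22 to 9.56 in E18.5 wild type, 9.12 to 9.62 in E18.5 knockouts, 9.55 to 10.34 in P0 wild type and 9.92 to 10.56 in P0 knockouts. The P0 knockout arrays thus all lay above the E18.5 knockout arrays, whereas the wild-type groups met at P0 wild type 1. The islet hormone marker means overlapped between the ages in both genotypes, but they include Ins2, which can show no difference. Gcg, the glucagon gene and 1 of the 7 markers, was called higher at P0 in wild type (0.50 ± 0.15, adjusted p = 0.0476), from 15.89 to 16.30 at E18.5 to 16.33 to 16.74 at P0, and was at 0.25 ± 0.14 (adjusted p = 0.215) in knockouts. With the islet hormone mean as a covariate, the wild-type calls of Chga, Scg2 and Scg3 were kept. That mean includes Ins2 and Gcg, so it does not measure endocrine cell number, and the part of cell number in the granin values was not tested. Without the 4 marker-rich arrays none of the 3 wild-type granin calls passed, and E18.5 wild type 4 is the only wild-type array among those left out. The differences were then 1.09 for Chga (adjusted p = 0.0622), 0.52 for Scg2 (0.142) and 0.66 for Scg3 (0.121). With the liver, intestinal and muscle means as covariates none passed either, at 1.045 (0.0906), 0.63 (0.0677) and 0.68 (0.124). The same held with the neuron and Schwann cell mean as a covariate, at 0.66 (0.177), 0.50 (0.151) and 0.65 (0.123). When only the wild-type arrays entered the fit, the adjusted p was 0.0664 for Chga, 0.13 for Scg2 and 0.107 for Scg3. The main fit gave 1.10, 0.58 and 0.73.

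Chromogranin A (Chga), the granin most used as an endocrine marker, read 8.47, 9.01, 8.86 and 8.73 in E18.5 wild type and 8.86, 10.24, 9.75, 10.10 and 10.41 in P0 wild type. The rise was 1.10 ± 0.33, or 2.15-fold (adjusted p = 0.043), with 4 of the P0 arrays above every E18.5 array and P0 wild type 1 among them. In knockouts it read 8.24, 9.32, 9.20, 8.38 and 9.55 at E18.5 and 9.06 to 10.17 with a median of 9.99 at P0, a difference of 0.81 ± 0.29 (adjusted p = 0.054) that did not pass. The E18.5 knockout arrays were themselves split, with replicates 1 and 4 about 1 unit below the rest. The wild-type call was lost on leaving out any 1 of 10 arrays (E18.5 wild type 1 to 4, P0 wild type 2 to 5, E18.5 knockout 3, P0 knockout 5), with adjusted p of 0.0509 to 0.121, and the difference became 0.66 (adjusted p = 0.177) with the neuron and Schwann cell mean as a covariate.

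Secretogranin II (Scg2), the precursor of secretoneurin, read 8.30, 8.90, 8.50 and 8.32 in E18.5 wild type and 8.64, 9.03, 9.66, 9.13 and 8.96 in P0 wild type. It rose by 0.58 ± 0.17, or 1.49-fold (adjusted p = 0.045), with E18.5 wild type 2 above P0 wild type 1. In knockouts it went from 8.54, 8.46, 8.66, 8.62 and 8.65 to a range of 8.85 to 9.64 with a median of 9.37, a rise of 0.74 ± 0.16, or 1.67-fold (adjusted p = 0.0026), without overlap. The wild-type call was lost on leaving out any 1 of 15 arrays (adjusted p 0.0511 to 0.132: all but E18.5 wild type 2, P0 wild type 1 and P0 knockout 1, 2 and 5). The knockout call was lost without the 4 marker-rich arrays (0.69, adjusted p = 0.052). It was also lost with the liver, intestinal and muscle means as covariates (0.55, adjusted p = 0.0735). With the running sample number of the labels, which follows age, the knockout value was 0.54 (adjusted p = 0.217).

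Secretogranin III (Scg3), which tethers chromogranin A to the granule membrane, read 9.73, 9.999, 9.51 and 9.46 in E18.5 wild type and 9.87, 10.12, 10.998, 10.79 and 10.28 in P0 wild type. It rose by 0.73 ± 0.21, or 1.66-fold (adjusted p = 0.036). In knockouts it read 9.96, 9.79, 9.95, 9.54 and 10.03 at E18.5 and 10.18 to 11.13 with a median of 10.68 at P0, a rise of 0.80 ± 0.19, or 1.74-fold (adjusted p = 0.0053), without overlap. P0 wild type 3 and 4 were the high arrays of their group for both Scg3 and the granin mean. The wild-type call was lost on leaving out E18.5 wild type 1, 3 or 4 or P0 wild type 3, 4 or 5 (adjusted p 0.051 to 0.0955), and the knockout call was lost without the 4 marker-rich arrays (0.82, adjusted p = 0.056). The knockout call was also lost with the liver, intestinal and muscle means as covariates (0.58, adjusted p = 0.151). With the running sample number the knockout value was 0.49 (adjusted p = 0.359).

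Scg5 (7B2), the chaperone of the convertase PC2, read 8.13, 8.14, 8.17 and 8.41 in E18.5 wild type and 8.68, 8.33, 9.33, 8.97 and 8.62 in P0 wild type, a difference of 0.57 ± 0.22 (adjusted p = 0.11) that did not pass. In knockouts it read 8.93, 7.98, 8.19, 7.96 and 8.30 at E18.5 and 8.66 to 9.60 with a median of 9.09 at P0, a rise of 0.85 ± 0.20, or 1.81-fold (adjusted p = 0.0047). E18.5 knockout 1 was the high array of its group and lay within the P0 range. Chgb (chromogranin B) was at 12.31, 11.76, 11.07 and 11.64 in E18.5 wild type and 11.72, 11.80, 11.96, 12.05 and 11.06 in P0 wild type, which overlapped throughout (0.02 ± 0.26), and its knockout difference was 0.52 ± 0.23 (adjusted p = 0.12). Vgf, whose peptides regulate energy balance, was low on every array, from 4.53 to 4.86, and was not tested.

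**Figure D2:**
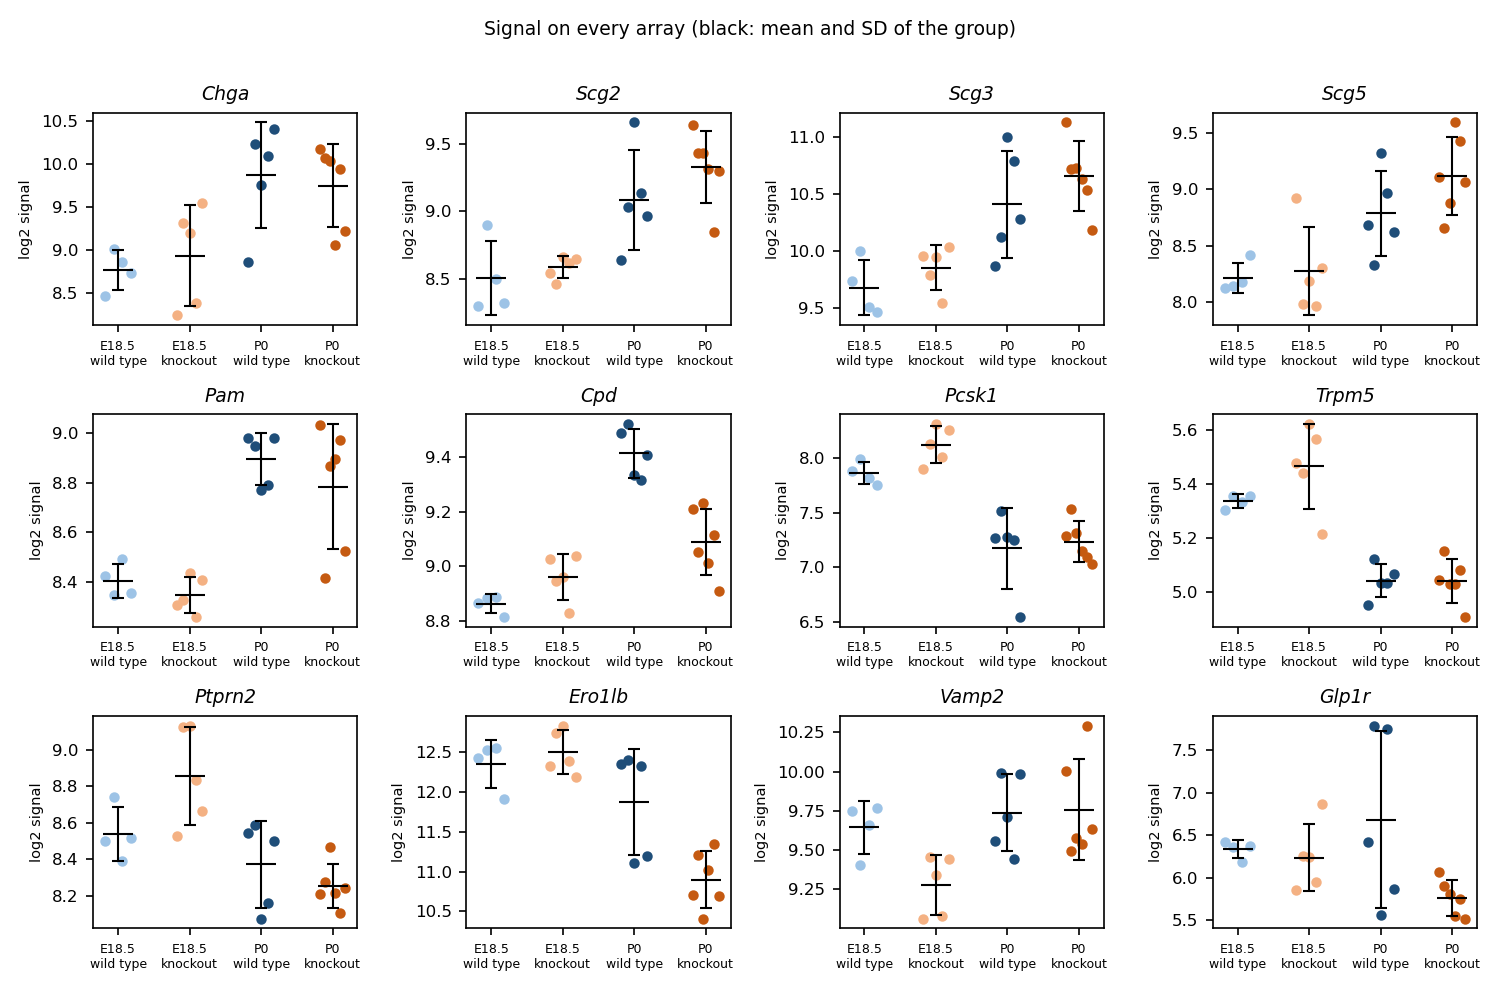
Log2 signal (y axis) on each of the 20 arrays for 12 members, 1 panel per gene with its own scale, grouped by age and genotype (x axis); points are arrays and black marks are the group mean and SD. Pcsk1 and Trpm5 separate by age in both genotypes, Cpd in P0 wild type lies above all other groups, and Ero1lb and Glp1r split within P0 wild type.

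The prohormone processing genes moved in different directions. Pcsk1, which encodes the convertase PC1/3 that makes the first cuts in proinsulin and cleaves many other prohormones, read 7.88, 7.99, 7.82 and 7.75 in E18.5 wild type and 7.27, 7.52, 7.28, 7.25 and 6.55 in P0 wild type. It fell by 0.69 ± 0.15, or 1.61-fold (adjusted p = 0.0095), without overlap. In knockouts it read 7.90, 8.13, 8.31, 8.01 and 8.26 at E18.5 and 7.03 to 7.53 with a median of 7.22 at P0, a fall of 0.89 ± 0.14, or 1.85-fold (adjusted p = 0.00025), also without overlap. In both genotypes the granins Scg2 and Scg3 were thus called higher at P0 and Pcsk1 lower. The wild-type adjusted p was 0.0584 when only the 9 wild-type arrays entered the fit.

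Pam, the enzyme that amidates peptide C termini, read 8.42, 8.35, 8.49 and 8.35 in E18.5 wild type and 8.98, 8.95, 8.77, 8.79 and 8.98 in P0 wild type, a rise of 0.49 ± 0.11, or 1.41-fold (adjusted p = 0.0086), without overlap. In knockouts it rose by 0.44 ± 0.10 (adjusted p = 0.0031), from 8.30, 8.33, 8.43, 8.26 and 8.41 to a range of 8.41 to 9.03 with a median of 8.88. P0 knockout 2 and 6 stayed near the E18.5 level. The wild-type call was lost with the liver, intestinal and muscle means as covariates (0.365, adjusted p = 0.0636) and with the running sample number of the labels, which follows age (0.47, adjusted p = 0.0884). Without the 4 marker-rich arrays the knockout value was 0.40 (adjusted p = 0.065), and with the running sample number it was 0.42 (adjusted p = 0.12).

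Cpd, a Golgi carboxypeptidase that recycles to the cell surface, had the tightest arrays of all measured members, with a pooled within-group SD of 0.093. It read 8.87, 8.88, 8.89 and 8.81 in E18.5 wild type and 9.49, 9.52, 9.34, 9.32 and 9.41 in P0 wild type, a rise of 0.55 ± 0.07, or 1.46-fold (adjusted p = 0.00026), without overlap. In knockouts it read 9.03, 8.95, 8.96, 8.83 and 9.04 at E18.5 and 8.91 to 9.23 with a median of 9.08 at P0, a difference of 0.13 ± 0.06 (adjusted p = 0.14) that did not pass. Cpe, the granule carboxypeptidase that removes basic residues after convertase cleavage, was at 0.33 ± 0.25 in wild type and 0.03 ± 0.22 in knockouts. Pcsk1n (proSAAS), an inhibitor of PC1/3, was at -0.06 ± 0.09 in wild type and 0.22 ± 0.08 (adjusted p = 0.065) in knockouts.

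Of the 4 granule membrane, zinc and folding genes, none passed in wild type and 2 fell in knockouts. Ero1lb, the endoplasmic reticulum oxidase that serves disulfide formation in proinsulin, read 12.42, 12.52, 12.55 and 11.91 in E18.5 wild type and 12.34, 12.40, 11.10, 12.32 and 11.19 in P0 wild type (-0.48 ± 0.28, adjusted p = 0.31). P0 wild type 3 and 5 lay more than 1 unit below the rest of their group. In knockouts it fell from 12.32, 12.73, 12.83, 12.38 and 12.19 to a range of 10.41 to 11.35 with a median of 10.86, by 1.59 ± 0.25 or 3.02-fold (adjusted p = 0.00028), without overlap. Ero1lb is also made in acinar cells, and the mean of 5 acinar transcription factors was 9.64, 9.81, 8.47 and 8.11 in E18.5 wild type, E18.5 knockout, P0 wild type and P0 knockout, with 3 of 5 called lower at P0 in wild type and 4 of 5 in knockouts. Their part in the Ero1lb result was not tested.

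Ptprn2 (phogrin), a granule membrane protein and islet autoantigen, read 8.50, 8.74, 8.39 and 8.52 in E18.5 wild type and 8.54, 8.59, 8.08, 8.16 and 8.50 in P0 wild type (-0.17 ± 0.13, adjusted p = 0.48). In knockouts it fell from 8.53, 9.12, 9.13, 8.84 and 8.67 to a range of 8.11 to 8.47 with a median of 8.23, by 0.60 ± 0.12 or 1.52-fold (adjusted p = 0.0016), without overlap. Its relative Ptprn (IA-2) was at 5.36, 5.35, 5.26 and 5.26 in E18.5 wild type and 5.26, 5.33, 5.11, 5.26 and 5.16 in P0 wild type. Its differences were -0.08 ± 0.10 in wild type, which turned to 0.04 with the neuron and Schwann cell mean as a covariate, and 0.00 ± 0.09 in knockouts. Slc30a8, which loads zinc into insulin granules, was at 0.09 ± 0.30 and -0.03 ± 0.27.

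Of the 11 docking and fusion genes, none passed in wild type and 1, Vamp2, passed in knockouts. The largest wild-type test statistics belonged to Sytl4 (granuphilin, which docks insulin granules), Cplx2 (complexin 2, a SNARE clamp) and Cadps (CAPS1, a priming factor). Sytl4 read 5.80, 6.42, 6.36 and 5.94 in E18.5 wild type and 5.82, 5.82, 5.81, 5.47 and 5.60 in P0 wild type (-0.43 ± 0.14, adjusted p = 0.062). It passed on leaving out E18.5 wild type 1 (-0.53, adjusted p = 0.0391), E18.5 wild type 4 (-0.49, adjusted p = 0.0488) or P0 knockout 2 (-0.43, adjusted p = 0.0395). Sytl4 also passed with array weights (-0.43, adjusted p = 0.0413), the running sample number (-0.73, adjusted p = 0.029) and the islet hormone mean as a covariate (-0.44, adjusted p = 0.042). Its E18.5 wild-type arrays fell into a higher and a lower pair. Of the lower pair, E18.5 wild type 1 lay within the P0 wild-type range and E18.5 wild type 4 lay above it.

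Cplx2 read 4.68, 4.96, 4.63 and 4.88 in E18.5 wild type and 5.29, 5.12, 4.99, 4.99 and 5.01 in P0 wild type, which did not overlap, but the difference of 0.29 ± 0.10 did not pass (adjusted p = 0.076). Cadps read 6.31, 6.55, 6.18 and 6.62 in E18.5 wild type and 6.22, 6.21, 5.98, 5.85 and 6.04 in P0 wild type (-0.36 ± 0.16, adjusted p = 0.17). Neither gene passed in knockouts, where Cplx2 was at 0.24 ± 0.09 and Cadps at -0.04 ± 0.14.

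Vamp2 (synaptobrevin 2), the SNARE of the granule membrane, read 9.06, 9.46, 9.34, 9.08 and 9.45 in E18.5 knockouts and 9.49 to 10.29 with a median of 9.61 in P0 knockouts. It rose by 0.48 ± 0.15, or 1.40-fold (adjusted p = 0.023), without overlap. The call was lost on leaving out E18.5 knockout 1 (0.43, adjusted p = 0.0637), E18.5 knockout 4 (0.43, adjusted p = 0.0632) or P0 knockout 1 (0.43, adjusted p = 0.0518), and without the 4 marker-rich arrays (0.51, adjusted p = 0.0943). Vamp2 also lost it with the liver, intestinal and muscle means as covariates (0.56, adjusted p = 0.0584) and with the running sample number (0.715, adjusted p = 0.0687). In wild type it read 9.75, 9.40, 9.66 and 9.77 at E18.5 and 9.56, 9.99, 9.71, 9.44 and 9.98 at P0 (0.09 ± 0.16), so the E18.5 knockout arrays were the low group.

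Snap25, the plasma membrane SNARE that neurons express strongly, varied more between arrays than any member but G6pc2, with a pooled SD of 0.617. It read 8.39, 8.14, 7.97 and 8.49 in E18.5 wild type, 9.83, 7.70, 7.68, 7.28 and 7.40 in E18.5 knockouts, 8.57, 7.65, 7.75, 7.72 and 7.59 in P0 wild type, and 7.90 to 9.10 with a median of 8.39 in P0 knockouts. The highest array, E18.5 knockout 1, also had the highest mean of 9 neuron markers (8.07, against 5.79 to 6.43 on the other E18.5 knockouts) and of 4 sympathoadrenal markers (7.90, against 5.29 to 5.55). Neuron markers were below 0 in 9 of 9 cases in the wild-type age comparison and above 0 in 8 of 9 in the knockout one, none of them called. The docking and fusion members were below 0 in 7 of 11 cases in wild type and above 0 in 8 of 11 in knockouts, and the part of nerve RNA in these values was not tested. Syt4, Syt7, Stx1a, Rab3a, Rab27a and Rims2 had wild-type differences between -0.22 and 0.11 and knockout differences between -0.01 and 0.46.

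**Figure D3:**
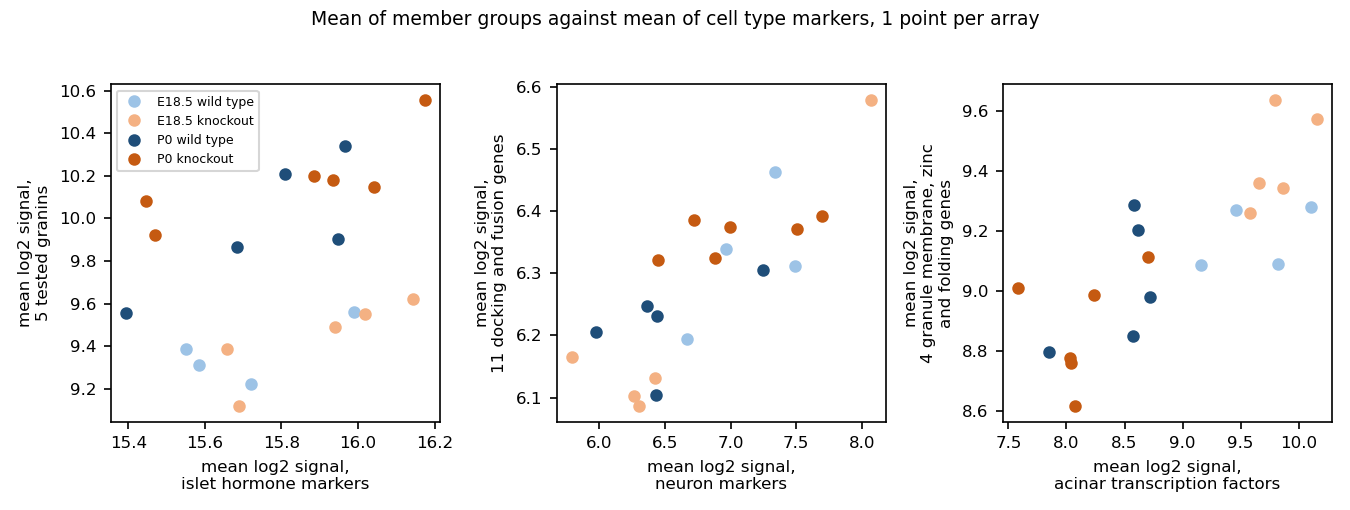
Mean log2 signal of a member group (y axis) against the mean log2 signal of a cell type marker list (x axis), 1 point per array and coloured by group: granins against islet hormones, docking and fusion genes against neuron markers, and granule membrane, zinc and folding genes against acinar transcription factors. P0 arrays mostly lie higher for granins, the islet hormone means of the ages overlap (they include Ins2, which is constant, and Gcg, called higher at P0 in wild type), E18.5 knockout 1 is at the upper right of the neuron panel, and the acinar panel splits by age along its x axis.

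Among the 6 glucose sensing and excitability genes, Trpm5 fell in both genotypes and no other member passed in either. Trpm5, a calcium-activated cation channel that adds to beta cell depolarisation and also marks tuft cells, read 5.30, 5.35, 5.33 and 5.36 in E18.5 wild type and 4.95, 5.12, 5.03, 5.03 and 5.07 in P0 wild type, a fall of 0.29 ± 0.07, or 1.23-fold (adjusted p = 0.015). In knockouts it went from 5.48, 5.44, 5.62, 5.57 and 5.21 to a range of 4.91 to 5.15 with a median of 5.04, a fall of 0.42 ± 0.06, or 1.34-fold (adjusted p = 0.00019). Neither pair of groups overlapped, although the signals lay little above the array median. Without the 4 marker-rich arrays the wild-type adjusted p was 0.0509. Tuft cells also lie in gut epithelium, and of 5 intestinal markers 1 was called lower at P0 in wild type and 2 in knockouts. Vil1 (villin) was at -1.02 ± 0.20 (adjusted p = 0.00488) and -1.49 ± 0.18 (adjusted p = 3.84e-05), and Cdx2, an intestinal transcription factor, at -0.42 ± 0.13 (adjusted p = 0.0248) in knockouts. Their part in the Trpm5 result was not tested.

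The ATP-sensitive potassium channel consists of the pore Kcnj11 (Kir6.2) and the sulfonylurea receptor Abcc8 (SUR1). Kcnj11 read 5.13, 5.05, 5.06 and 5.45 in E18.5 wild type and 5.48, 5.50, 5.90, 5.71 and 5.58 in P0 wild type, without overlap (0.46 ± 0.15, adjusted p = 0.06), and was at 0.26 ± 0.14 in knockouts. It passed in wild type under 7 of 35 alternatives: leaving out E18.5 wild type 4 (0.56, adjusted p = 0.035), P0 knockout 3 (0.46, adjusted p = 0.0312) or the 4 marker-rich arrays (adjusted p = 0.0349), repeated quantile normalisation (0.0492), cyclic loess (0.0492), array weights (0.042) and the running sample number (0.0396). Abcc8 had differences of -0.20 ± 0.19 and -0.28 ± 0.17, opposite in sign to those of its partner, and none of the 4 values passed. Cacna1d, an L-type calcium channel, read 6.74, 6.84, 6.72 and 6.87 in E18.5 wild type and 6.88, 7.10, 7.17, 6.73 and 7.75 in P0 wild type (0.34 ± 0.15, adjusted p = 0.19), and its difference in knockouts was 0.36 ± 0.14 (adjusted p = 0.07).

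Slc2a2 (GLUT2), the glucose transporter of rodent beta cells, was at -0.35 ± 0.23 in wild type and -0.42 ± 0.21 in knockouts. Its E18.5 wild-type arrays of 6.10, 6.41, 6.10 and 5.94 lay above its P0 wild-type arrays of 5.71, 5.78, 5.78, 5.86 and 5.82. Of 7 liver markers, all were lower at P0 in wild type (median -1.80) and 6 were higher in knockouts (1.28), none of them called. Of 5 intestinal markers, 4 were lower at P0 in wild type (median -1.02) and all in knockouts (-1.49). The part of liver and intestinal RNA in the Slc2a2 values was not tested. G6pc2, the islet glucose-6-phosphatase that opposes glucokinase, was at -0.41 ± 0.40 and -0.40 ± 0.36, with the largest pooled SD of the measured members, 0.632. Neither gene passed the test.

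None of the 3 tested receptors and secreted peptides passed in either genotype. Ucn3, a peptide of mature beta cells, was low, at 4.98, 5.18, 4.61 and 4.87 in E18.5 wild type and 3.97, 4.60, 4.49, 4.81 and 4.29 in P0 wild type (-0.48 ± 0.24, adjusted p = 0.23), and lay above the array median on only 4 arrays. Ffar1 (GPR40), a fatty acid receptor, read 4.46, 4.54, 4.89 and 4.89 in E18.5 wild type and 4.53, 5.17, 5.30, 4.92 and 5.07 in P0 wild type (0.30 ± 0.16, adjusted p = 0.25). Glp1r, the receptor of the incretin GLP-1, read 6.42, 6.36, 6.18 and 6.37 in E18.5 wild type and 6.42, 7.79, 5.57, 7.75 and 5.87 in P0 wild type (0.35 ± 0.36, adjusted p = 0.61), with P0 wild type 2 and 4 well above all other arrays of the series. Gipr, the GIP receptor, was not tested and ranged from 4.13 to 5.39.

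Knockout and wild-type arrays of the same age were compared to ask what loss of inceptor changed in this machinery. At E18.5 none of the 34 members was called, with a lowest adjusted p of 0.893, 3 members at an unadjusted p under 0.05 and a median difference of 0.05. Over all genes 0.0111% were called, which is 2 genes, 980 had an unadjusted p under 0.05 and the median was 0.02. Of the 34, 21 differences were above 0 and 13 below. At P0 none was called either, with a lowest adjusted p of 0.0952, 4 members at an unadjusted p under 0.05 and a median of 0.07. Over all genes the share was again 0.0111%, 1577 had an unadjusted p under 0.05 and the median was 0.01. No member therefore passed in the limma fit at either age, which does not show that the levels are equal.

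**Figure D4:**
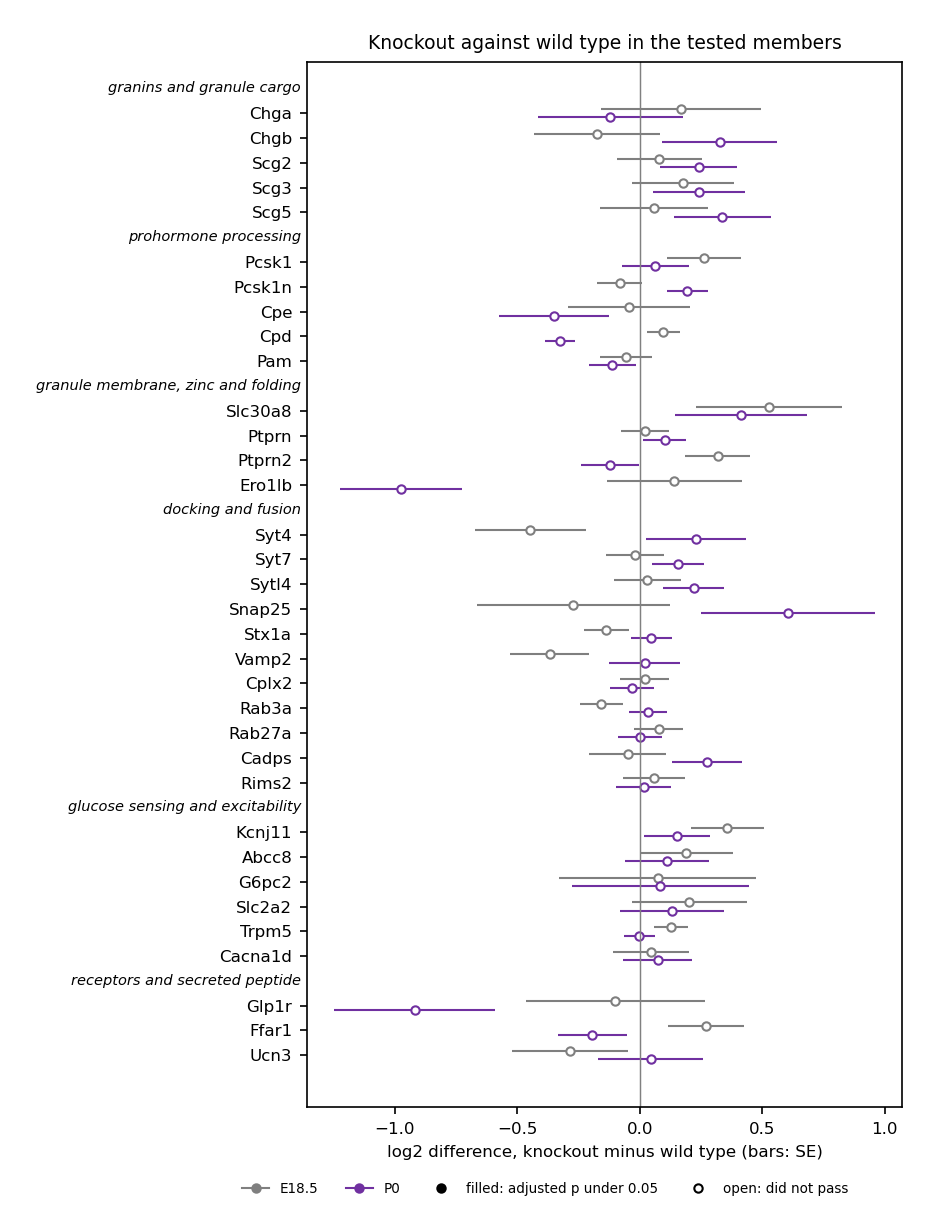
Log2 difference between knockout and wild type (x axis, bars: SE) for the 34 tested members by role, at E18.5 (grey) and P0 (purple). Every point is open, since none passed the test; Ero1lb and Glp1r at P0 lie farthest from 0, at -0.97 and -0.92, and Cpd at P0 lies at -0.32 with an SE of 0.06.

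At E18.5 the smallest unadjusted p belonged to Kcnj11, Ptprn2 and Vamp2, whose arrays are given above. Kcnj11 was at 0.36 ± 0.15 (adjusted p = 0.893), with E18.5 knockouts at 5.25, 5.33, 5.43, 5.79 and 5.84, and 5 of 5 above the wild-type mean. Ptprn2 was at 0.32 ± 0.13 (adjusted p = 0.893), with 4 of 5 knockouts above the wild-type mean. Vamp2 was at -0.37 ± 0.16 (adjusted p = 0.911), with 5 of 5 below it. In all 3 genes the groups overlapped. In the same comparison 9 of 9 neuron markers (median difference -0.57), 4 of 4 sympathoadrenal markers (-0.295) and 6 of 7 liver markers (-1.19) were lower on average in knockouts. Higher on average were 5 of 5 intestinal markers (0.717), 5 of 5 skeletal muscle markers (0.526) and 5 of 5 acinar transcription factors (0.18). None of these markers was called, and their part in these values was not tested.

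At P0 the smallest p belonged to Cpd, Ero1lb and Glp1r. Cpd was at -0.32 ± 0.06 (1.25-fold, adjusted p = 0.0952), and its 6 knockout arrays lay below all 5 wild-type arrays. It passed on leaving out P0 knockout 1 (-0.35, adjusted p = 0.0366). Ero1lb was at -0.97 ± 0.25 (adjusted p = 0.22), with 6 of 6 knockouts below the wild-type mean, while P0 wild type 3 and 5 lay within the knockout range. Glp1r was at -0.92 ± 0.33 (adjusted p = 0.48), with knockouts at 5.52 to 6.06 and a median of 5.77, a range that also held 2 of the 5 wild-type arrays (replicates 3 and 5). Pcsk1n also had non-overlapping groups, at 5.84 to 6.035 in wild type and 6.039 to 6.40 in knockouts (0.20 ± 0.08, adjusted p = 0.55). Over all genes the P0 groups did not overlap in 0.272% with knockouts higher and 0.239% with knockouts lower. At P0 all 7 liver markers (median difference 2.51) and all 9 neuron markers (median 0.50) were higher on average in knockouts. So were all 5 skeletal muscle markers (0.574) and all 4 sympathoadrenal markers (0.418), while all 5 endothelium markers were lower (-0.21). Of 5 acinar transcription factors, 3 were lower and 2 higher (median -0.365). An unadjusted p under 0.05 belonged to 3 of the acinar factors and 3 of the liver markers. No marker of these lists was called, and their part in these values was not tested.

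Whether the knockout effect differed between the ages was tested as the P0 effect minus the E18.5 effect. No member was called (0% over all genes, where 1257 genes had an unadjusted p under 0.05), 6 members had an unadjusted p under 0.05, and the lowest adjusted p was 0.261. That value belonged to Cpd, with a difference of -0.42 ± 0.09. Ero1lb followed at -1.12 ± 0.37 (adjusted p = 0.59) and Ptprn2 at -0.44 ± 0.18 (adjusted p = 0.67). So the age calls that Cpd has in wild type alone, and that Ero1lb and Ptprn2 have in knockouts alone, are not shown to differ between the genotypes. The 2 age comparisons use separate arrays, but both share them with the knockout comparisons.

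Related genes outside the list were read in the same fit. Of 25 other docking and fusion genes, 22 were tested: none rose and 2 fell in wild type, Unc13b (Munc13-2, a priming factor, -0.55 ± 0.10, adjusted p = 0.0045) and Snap23 (the broadly expressed relative of Snap25, -0.48 ± 0.12, adjusted p = 0.019). The 2 are 9.09% of the list, near the 8.87% called over all genes. In knockouts 3 rose and 3 fell (27.3%, against 23% over all genes), with Unc13b at -0.52 ± 0.09. Of 20 genes of granule formation and cargo, 16 were tested, with none called in wild type and 2 higher and 5 lower in knockouts (43.8%, against 23%). The smallest wild-type p there belonged to Nucb2 (the nesfatin precursor, -0.64 ± 0.20, adjusted p = 0.055), Furin (a convertase of the Golgi, 0.24 ± 0.08), Hid1 (-0.36 ± 0.13) and Vps41 (0.26 ± 0.11). In knockouts Nucb2 fell by 1.20 ± 0.18 (adjusted p = 0.00022) and Hid1, which is needed for granule maturation, fell by 0.65 ± 0.12 (adjusted p = 0.00086).

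Of 20 genes of glucose metabolism and channels, 16 were tested: none rose and 4 fell in wild type (25%, against 8.87% over all genes), and 2 rose and 7 fell in knockouts (56.2%, against 23%). Slc2a1 (GLUT1), the glucose transporter common to many cell types, fell by 1.63 ± 0.27 in wild type (adjusted p = 0.0022) and by 1.29 ± 0.25 in knockouts (adjusted p = 0.0012). Ldha, lactate dehydrogenase, a gene kept low in mature beta cells, fell by 1.29 ± 0.26 (adjusted p = 0.0067) and by 1.40 ± 0.24 (adjusted p = 0.00055). The low-Km hexokinase Hk2 fell by 0.87 ± 0.18 and 0.50 ± 0.16, and pyruvate carboxylase Pcx by 0.33 ± 0.09 and 0.26 ± 0.08. These genes are expressed in exocrine cells too, and 3 of 5 acinar transcription factors were called lower over the same interval in wild type and 4 of 5 in knockouts; their part in these falls was not tested. Of 20 other islet receptors, 13 were tested, with none called in wild type and Igf1r alone called in knockouts (0.38 ± 0.12, adjusted p = 0.025), which is 7.69% of the list against 23%. Against wild type, no gene of these 4 lists was called at either age. The list medians in the wild-type age comparison were -0.04, 0.12, -0.13 and 0.03 in the order given, against 0.01 over all genes.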

How the data were processed

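The authors deposited 1 log2 signal per transcript cluster for each of 20 arrays. Per the submitters' processing notes these came from RMA, a method that corrects background, equalises the arrays and combines probes, run with version 1.4.1.46 of Affymetrix Expression Console. RNA was amplified and labelled with NuGEN kits, per the labels' protocols. The signals run from 2.17 to a ceiling of 19.932.

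Of 65956 probe sets, 30604 carried 1 symbol, 2146 several and 33206 none in the platform annotation. Symbols were updated through RefSeq's GRCm38.p6 gene table. The probe set with the highest mean stood for a gene, and a gene was tested where it exceeded the median of 4 or more arrays (17992 of 30063). All arrays entered 1 limma 3.58.1 model with 4 group means (eBayes, 16 residual degrees of freedom, R 4.3.3). P-values are two-sided and were Benjamini-Hochberg adjusted separately for each contrast, and the fit was tested on simulated data. Figures were drawn with matplotlib 3.10.9.

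The members and gene lists were chosen with earlier results of these data known. Array values were given for the 3 members of each role group with the largest moderated t in the wild-type age comparison, and for the 3 with the smallest p in each knockout comparison and in the difference. Scg5, Chgb, Snap25, Slc2a2 and Pcsk1n were added after their values were seen. Up to 4 genes of a related list were named by their wild-type age difference, or by p where none was called, and Igf1r was added afterwards. Alternatives were other filters, normalisations, variance models, array weights, covariates, a replicate block and leaving out each array. Leaving out the 4 arrays rich in other tissues' markers was chosen after seeing the data. Pcsk2 and Prlr were not analysed here.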

Additional observations from a re-analysis of the deposited data

Results flagged for a closer look

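Single arrays stood apart in 3 of 80 groups looked at over 20 members, by the gap between the end array and its neighbour relative to the group's range. About 1 group in 20 (5%) is marked in this way by chance. Kcnj11 was at 6.28 on P0 knockout 3, against 5.54 to 5.80 on the other P0 knockouts. Pcsk1 was at 6.55 on P0 wild type 5, against 7.25 to 7.52 on the other P0 wild-type arrays, and its fall with age in wild type remained called without that array. Scg5 was at 8.41 on E18.5 wild type 4, against 8.13 to 8.17 on the other E18.5 wild-type arrays.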

How the results depend on the processing

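Of the age calls, Cpd in wild type and Pcsk1, Trpm5, Ero1lb, Ptprn2 and Scg5 in knockouts were kept under all 35 alternatives. The granin calls in wild type were near the threshold: Scg2 lost its call under 24 of 35 alternatives, Chga under 16 and Scg3 under 13. Over all genes, the age count in wild type (1595) became 748 with the neuron and Schwann cell mean as a covariate, 825 with the liver, intestinal and muscle means as covariates and 1010 with the compared arrays alone. In knockouts (4139) it became 1939 with the running sample number, 1673 with the liver, intestinal and muscle means and 1748 without the marker-rich arrays. Members called in wild type (7) became 4 with no signal filter, 4 with the neuron and Schwann cell mean, 3 with the liver, intestinal and muscle means, 3 with the compared arrays alone and 4 without the marker-rich arrays; in knockouts (9) they became 5 with the running sample number. The running sample number follows age, since it is 1 to 12 at P0 and 13 to 22 at E18.5, so this order and age cannot be told apart. The median member difference moved to -0.147 in wild type and -0.055 in knockouts with the running sample number, to 0.088 in wild type with the neuron and Schwann cell mean, and to 0.086 for the difference of knockout effects without the marker-rich arrays. Ptprn turned to 0.037 in wild type with the neuron and Schwann cell mean. The cause of these shifts was not tested, and some of the fits also held fewer arrays.

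At E18.5 the knockout count (2 genes) became 5 with array weights. At P0 (2 genes) it became 1 with array weights, with the neuron and Schwann cell mean, with the liver, intestinal and muscle means, with the compared arrays alone and without the marker-rich arrays, and 40 with the islet hormone mean, when 1 member, Cpd, was called (-0.34, adjusted p = 0.0297). Leaving out 1 array at a time gave 674 to 1823 genes by age in wild type (674 without E18.5 wild type 2, 743 without E18.5 wild type 1, 944 without E18.5 wild type 3, 981 without P0 wild type 3), 3292 to 4395 in knockouts, 2 to 4 by knockout at E18.5 (4 without E18.5 knockout 2 or P0 wild type 1), 1 to 45 at P0 (45 without P0 knockout 1, 40 without P0 wild type 1, 11 without P0 wild type 3) and 0 to 34 for the difference (34 without P0 wild type 1). Members called ranged from 4 to 8 in wild type (4 without E18.5 wild type 3 or P0 wild type 3, 4 or 5), from 8 to 11 in knockouts and from 0 to 1 for the knockout at P0.

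The labels do not say if replicate numbers pair the samples. Over 27 same-numbered pairs the deviations from group means correlated from -0.305 to 0.245, and 8 were over 0.1. Knockout and wild-type arrays of the same number correlated at 0.093, 0.179, 0.123 and 0.224 at E18.5. At P0 they correlated at 0.04, 0.041, 0.116, 0.245 and -0.031. Pairs with different numbers were not compared, so these values cannot decide if the numbers pair the arrays. With the replicate number as a block, the P0 knockout count was 1, the age counts were 1126 in wild type and 3528 in knockouts, and 5 and 11 members were called.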
